A study of Canis lupus familiaris with 6 samples.

Results

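The genes described here encode the enzymes of cholesterol synthesis, the proteins that control the sterol regulatory element-binding proteins (SREBPs), and the enzymes that make and modify long-chain fatty acids. They were taken by symbol from a list of 31 genes, which was drawn up by function with earlier results of these data known. Of these, 29 were found by symbol among the 35993 genes of the deposited gene table: 18 sterol enzymes, 5 genes of SREBP control and sterol transport, and 6 fatty acid enzymes. SREBF2 and FADS1 were not found by symbol.

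CPEK cells, a wild-type progenitor keratinocyte line from dog epidermis, received cold atmospheric microwave plasma (CAMP) carried by argon, or the gas without plasma, for 30 s. After 15 min the medium was changed, and RNA for strand-specific mRNA sequencing was taken 24 h later. The groups are called gas and dCAMP, with 3 libraries each. The study's methods speak of independent experiments in general but do not tie this to the sequenced libraries, so every p-value measures only the spread between these libraries, which may be technical.

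Cells make cholesterol from acetyl-CoA through mevalonate and squalene, and they make palmitate from acetyl-CoA and malonyl-CoA. When sterols in the endoplasmic reticulum are scarce, SCAP carries SREBPs to the Golgi, where they are cleaved into factors that switch on both pathways, while the INSIG proteins hold SCAP back. In the epidermis, cholesterol and fatty acids are building blocks of the lipid barrier that keratinocytes lay down as they differentiate.

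The libraries held 43084921 to 54082634 gene counts each. The 3 dCAMP libraries were close to each other and the gas libraries were not: over the 14708 genes that passed the filter on low counts, the root mean square log2 difference from the dCAMP mean was 1.04 in gas 1, 0.569 in gas 2 and 0.366 in gas 3, against 0.225 to 0.232 in the dCAMP libraries. Mitochondrial genes took 0.509%, 1.421% and 2.352% of the counts in gas 1, 2 and 3 and 2.185% to 2.235% in dCAMP. Results on the lipid genes are therefore given in every library, and with gas libraries left out. All 14 of 14 keratinocyte markers passed the filter, and their summed level was 56029 to 66454 CPM (counts scaled to a common, normalized library size) in gas and 53193 to 56511 in dCAMP. Most of the sum was KRT5 and KRT14, and single markers differed in both directions. For example, SFN had 2096 to 3089 CPM in gas and 1885 to 1963 CPM in dCAMP, while PERP had 705 to 1019 CPM and 1230 to 1279 CPM.

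No gene of lipid synthesis passed the test for a difference between dCAMP and gas after adjustment. With edgeR's quasi-likelihood test and p-values adjusted by Benjamini-Hochberg over all 14708 genes, the lowest adjusted p among the 29 genes was 0.221 and the highest was 0.831, and 0 genes were under 0.05. The background was the same, with 0 of 14708 genes (0%) under 0.05. At an unadjusted p under 0.05, 7 of the 29 genes (24.1%) passed, against 20.7% of all genes tested, a share near the background. DESeq2 gave 0 of the 29 genes at an adjusted p under 0.05, against 2.59% of the genes to which it gave an adjusted p. Voom with sample quality weights, which gives libraries that stand apart less weight, put 22 of the 29 genes (75.9%) under 0.05, against 60.8% of all genes tested.

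The differences went in both directions. The log2 fold change, dCAMP over gas, was above 0 for 14 genes and below 0 for 15, with a median of -0.03 and quartiles of -0.21 and 0.24, against a median of 0.03 and quartiles of -0.22 and 0.39 over all genes tested. The medians were -0.04 for the sterol enzymes, 0.10 for the control and transport genes and 0.02 for the fatty acid enzymes. In 7 genes (HMGCS1, SQLE, CYP51A1, MSMO1, SC5D, INSIG2 and ACACA) all dCAMP libraries lay above all gas libraries, which is 24.1% against 19.0% of all genes tested. In 7 others (MVK, MVD, LSS, DHCR7, SREBF1, SCAP and ACLY) they all lay below, against 20.9% of all genes tested. The groups overlapped in the remaining 15.

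**Figure D1:**
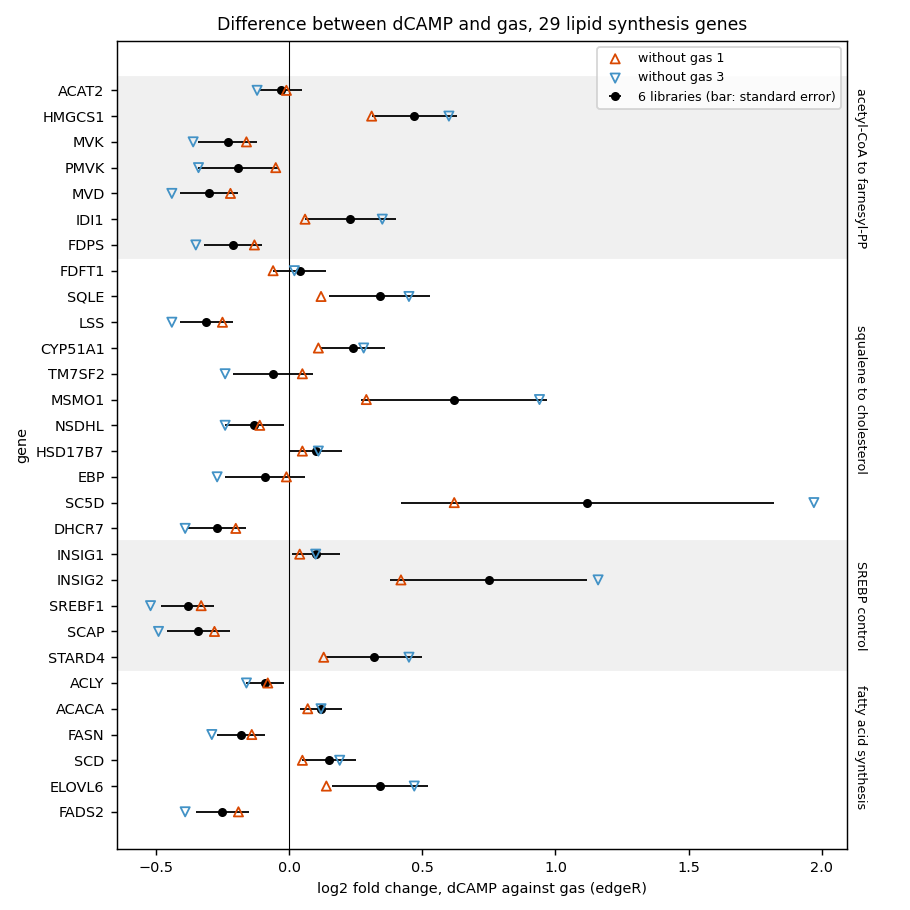
Log2 fold change (dCAMP over gas) of the 29 genes by role, as points with 1 standard error to each side, from edgeR's quasi-likelihood test on 3 libraries per group; open triangles give the value without gas 1 or without gas 3. The points spread to both sides of 0 in every role, and SC5D, at 1.12, has the widest standard error (0.70).

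The mean FPKM of the genes (fragments scaled for transcript length and mapped reads, so that levels of different genes can be compared) covered a wide range. FDPS (331) and SCD (325) stood highest over the 6 libraries, followed by SQLE (232), FADS2 (201), ACAT2 (199), ACLY (181) and HMGCS1 (172). The lowest were SC5D (14.0), TM7SF2 (10.9) and INSIG2 (5.92). Of the 29 genes, 15 were above the 90th percentile of FPKM over all genes tested and 28 were above the median, with INSIG2 the exception. Neighbours in this order were not always ranked alike in every library. FDPS had 310 to 414 in gas and 301 to 307 in dCAMP, and SCD had 282 to 341 and 338 to 345. Their gas ranges overlapped, while in dCAMP every value of SCD was above every value of FDPS. Gas 3 had the dCAMP order, with SCD at 341 and FDPS at 310. Gas 1 (282 and 414) and gas 2 (303 and 354) had the other order.

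**Figure D2:**
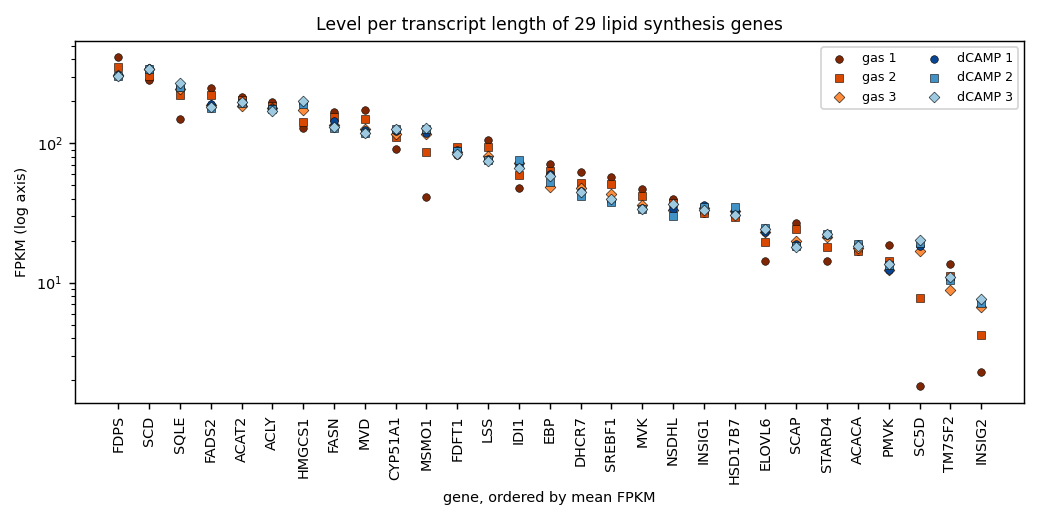
FPKM of each of the 29 genes in the 3 gas and the 3 dCAMP libraries, on a log axis, ordered by the mean of the 6 libraries. The gas points of SC5D (1.81 to 16.8) spread furthest.

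In the part of the pathway that leads from acetyl-CoA to farnesyl diphosphate, HMGCS1 was higher after dCAMP and MVK and MVD were lower. HMGCS1 (gene ID 479344, chr4:66633706-66654005, CanFam3.1), which makes HMG-CoA, had 424, 538 and 670 CPM in gas 1, 2 and 3 and 754, 732 and 779 CPM in dCAMP 1, 2 and 3. Every dCAMP value was above every gas value, and the mean was 755 ± 23.7 in dCAMP against 544 ± 123 in gas (SD, n = 3). The log2 fold change was 0.47 (SE 0.16), with an unadjusted p of 0.0262 and an adjusted p of 0.224 in edgeR's test. It was the 1 gene of the 29 that was higher with an unadjusted p under 0.05, or 3.45%, against 6.81% of all genes tested.

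MVD (gene ID 489663, chr5:64683146-64691576), the decarboxylase that closes the mevalonate steps, had 366, 323 and 281 CPM in gas and 273, 258 and 257 CPM in dCAMP. The groups did not overlap, although gas 3 lay close to dCAMP 1, and the log2 fold change was -0.30 (SE 0.11, adjusted p = 0.229 in edgeR's test). MVK (gene ID 486309, chr26:17497516-17519015), the mevalonate kinase, had 117, 106 and 92.5 CPM in gas and 91.4, 89.0 and 89.7 CPM in dCAMP. Its groups did not overlap either, with a log2 fold change of -0.23 (SE 0.11) and an adjusted p of 0.262 in edgeR's test. The other 4 genes of these steps overlapped between the groups: ACAT2 (acetoacetyl-CoA thiolase), PMVK (phosphomevalonate kinase), IDI1 (isopentenyl diphosphate isomerase) and FDPS (farnesyl diphosphate synthase). Their log2 fold changes lay between -0.21 for FDPS and 0.23 for IDI1.

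From squalene to cholesterol, genes on both sides of 0 again stood next to each other. SQLE (gene ID 608021, chr13:22994010-23018134), the squalene epoxidase, had 389, 599 and 660 CPM in gas and 687, 678 and 718 CPM in dCAMP. All dCAMP libraries were above all gas libraries, by a log2 fold change of 0.34 (SE 0.19, adjusted p = 0.305 in edgeR's test), which was 0.12 without gas 1 and 0.45 without gas 3. LSS (gene ID 491611, chr31:39479255-39502439), the lanosterol synthase that uses the product of SQLE, had 417, 382 and 331 CPM in gas and 310, 305 and 299 CPM in dCAMP. Here all dCAMP libraries were below all gas libraries, by a log2 fold change of -0.31 (SE 0.10, adjusted p = 0.221 in edgeR's test).

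CYP51A1 (gene ID 475225, chr14:17746654-17767019), which removes a methyl group from lanosterol, had 178, 219 and 235 CPM in gas and 245, 248 and 252 CPM in dCAMP. MSMO1 (gene ID 475491, chr15:61293769-61307285), the methylsterol monooxygenase of the next steps, had 84.8, 181 and 245 CPM in gas and 251, 263 and 272 CPM in dCAMP. Both were higher in every dCAMP library than in any gas library, with gas 3 close to dCAMP and gas 1 far from it, and their log2 fold changes were 0.24 (SE 0.12) and 0.62 (SE 0.35). Without gas 1 these were 0.11 and 0.29, and without gas 3 they were 0.28 and 0.94. A separate locus of the table described as an MSMO1 pseudogene, LOC102154725, had 7.17, 22.7 and 30.1 CPM in gas and 30.6 to 32.0 CPM in dCAMP, so reads shared between the copies could have been split by the counting.

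SC5D (gene ID 610411, chr5:12760591-12774484), the desaturase that turns lathosterol into 7-dehydrocholesterol, showed the largest difference and the largest spread of the 29 genes. It had 7.45, 32.6 and 71.6 CPM in gas and 77.8, 80.2 and 84.7 CPM in dCAMP. The gas values were 9.61-fold apart, and the dCAMP mean was 1.13 times the value of gas 3. The log2 fold change of 1.12 (SE 0.70) therefore had an unadjusted p of 0.157 and an adjusted p of 0.329 in edgeR's test, and it was 0.62 without gas 1 and 1.97 (adjusted p = 0.0515) without gas 3. DHCR7 (gene ID 483675, chr18:47257750-47277436), which reduces the product of SC5D to cholesterol, went the other way, with 329, 282 and 261 CPM in gas and 248, 228 and 245 CPM in dCAMP. Its groups did not overlap, and the log2 fold change was -0.27 (SE 0.11, adjusted p = 0.236 in edgeR's test). The groups overlapped for FDFT1 (squalene synthase), TM7SF2, NSDHL, HSD17B7 and EBP, enzymes of squalene synthesis and of the later changes to the sterol ring, whose log2 fold changes lay between -0.13 for NSDHL and 0.10 for HSD17B7.

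**Figure D3:**
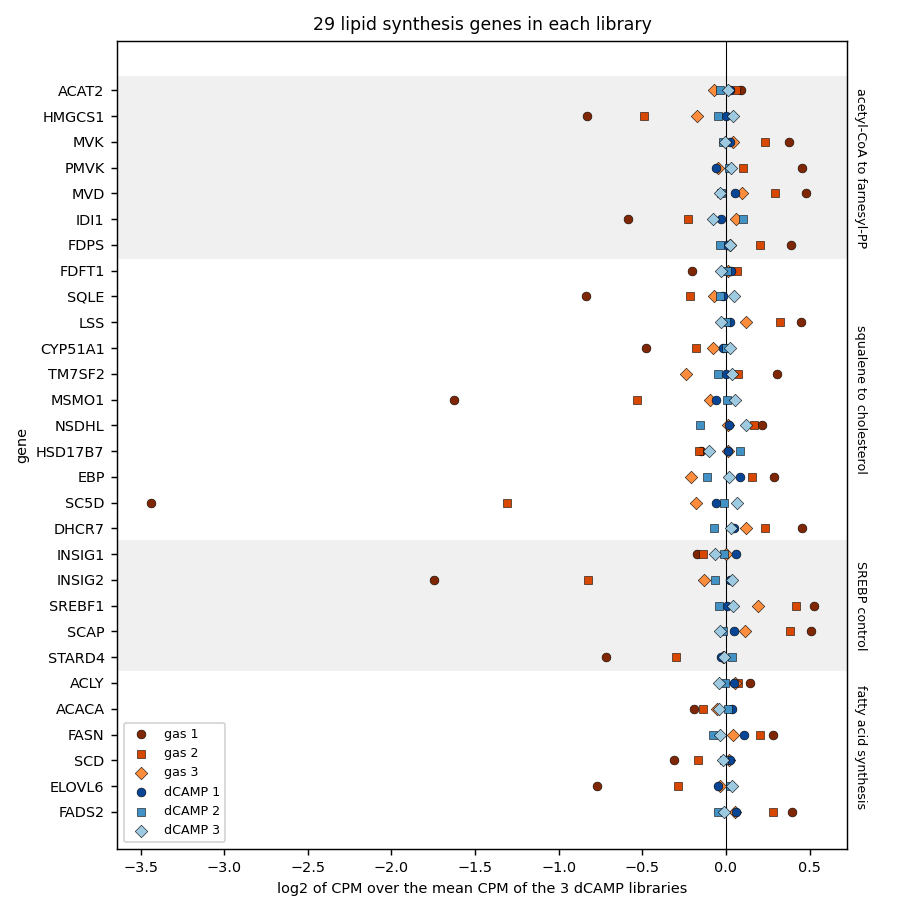
Level of each of the 29 genes in each library, as the log2 of its CPM over the mean of the 3 dCAMP libraries, by role. Gas 1 is the lowest or the highest of the 6 libraries in 28 genes (76.1% of all genes tested), and gas 3 is the gas library nearest to the dCAMP mean in 26 (68.6% of all genes tested).

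SREBF1 and SCAP, whose products drive the pathway, were lower in every dCAMP library than in any gas library. SREBF1 (gene ID 403475, chr5:41663809-41686764), the gene of SREBP-1, had 252, 234 and 200 CPM in gas and 176, 170 and 180 CPM in dCAMP, with means of 229 ± 26.3 and 175 ± 4.72 (SD, n = 3). This was a log2 fold change of -0.38 (SE 0.10), or 1.30-fold lower, with the smallest unadjusted p of the 29 genes, 0.00932. The adjusted p was 0.221 in edgeR's test and 0.0746 in DESeq2. Leaving out each library in turn gave log2 fold changes of -0.52 to -0.33 and unadjusted p-values of 0.000571 to 0.0421 in edgeR's test. SCAP (gene ID 484782, chr20:41418507-41485681), the escort protein of the SREBPs, had 122, 112 and 93.1 CPM in gas and 88.8, 85.0 and 83.8 CPM in dCAMP. Its log2 fold change was -0.34 (SE 0.12), with an adjusted p of 0.223 in edgeR's test.

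The INSIG genes, whose products retain SCAP, were not lower after dCAMP. INSIG2 (gene ID 610496, chr19:31796984-31811556) had 6.85, 13.0 and 21.0 CPM in gas and 23.4, 22.0 and 23.6 CPM in dCAMP. Every dCAMP library was above every gas library, but the gas libraries were 3.07-fold apart, and the log2 fold change of 0.75 (SE 0.37) had an adjusted p of 0.272 in edgeR's test and was 0.42 without gas 1 and 1.16 without gas 3. INSIG1 (gene ID 475554, chr16:18260456-18271855), itself an SREBP target, had 99.5, 102 and 112 CPM in gas and 117, 111 and 107 CPM in dCAMP, values that overlapped, with a log2 fold change of 0.10 (SE 0.09). STARD4, which carries cholesterol between membranes, also overlapped, with 47.7 to 77.5 CPM in gas and 77.0 to 80.4 CPM in dCAMP and a log2 fold change of 0.32 (SE 0.18). For SREBF2, the other SREBP gene, no value is given: the gene ID that the reference table pairs with the symbol carries another description there.

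Among the fatty acid enzymes no difference was larger than 1.26-fold. FADS2 (gene ID 483792, chr18:54552105-54581553), a desaturase of polyunsaturated fatty acids, had 842, 780 and 665 CPM in gas and 667, 620 and 636 CPM in dCAMP. The groups overlapped, since dCAMP 1 lay just above gas 3, and the log2 fold change was -0.25 (SE 0.10), with an unadjusted p of 0.0479 and an adjusted p of 0.240 in edgeR's test. ACLY (gene ID 607852, chr9:20929530-20974200), which supplies cytosolic acetyl-CoA, had 957, 912 and 899 CPM in gas and 894, 861 and 843 CPM in dCAMP. ACACA (gene ID 491130, chr9:36904204-37188096), the carboxylase that makes malonyl-CoA, had 177, 184 and 195 CPM in gas and 207, 204 and 196 CPM in dCAMP. Neither overlapped between the groups, in opposite directions, by log2 fold changes of -0.09 (SE 0.07) and 0.12 (SE 0.08). That of ACACA was -0.16 once a trend with transcript length was removed.

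FASN, the fatty acid synthase, had 1336 to 1580 CPM in gas and 1229 to 1401 CPM in dCAMP, and SCD, the stearoyl-CoA desaturase, had 1688 to 2117 CPM in gas and 2069 to 2128 CPM in dCAMP. ELOVL6, which elongates palmitate, had 70.8 to 118 CPM in gas and 117 to 124 CPM in dCAMP. All 3 overlapped between the groups, with log2 fold changes of -0.18, 0.15 and 0.34. With the length trend removed, SCD was at -0.06, and 5 of the 6 fatty acid enzymes were below 0, with a median of -0.22. In that setting 7789 of all 14708 genes tested were below 0, with a median of -0.04. The median transcript length of the fatty acid enzymes was 4921 bases, against 2518 bases over all genes tested. A locus described as fatty acid desaturase 1, LOC483793, had 187, 173 and 173 CPM in gas and 186, 173 and 181 CPM in dCAMP, with a log2 fold change of 0.02 (SE 0.08).

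Of the 29 genes, 6 were lower with an unadjusted p under 0.05 (SREBF1, LSS, SCAP, MVD, DHCR7 and FADS2), which is 20.7% against 13.9% of all genes tested. Without gas 2 or any 1 dCAMP library, only SREBF1, 1 of the 29 genes, was lower at that p, and without gas 1 and gas 3 the numbers were 4 and 10. The share of all genes tested that was lower at that p was not computed for these fits, so these counts have no background. At an adjusted p under 0.05 in edgeR's test, 18.1% of all genes tested were lower without gas 3. By the fold and p rule, a change of at least 2-fold with p under 0.05 before adjustment, 0 of the 29 genes were called, against 1.09% of all genes tested. The fold of SC5D, 2.17, was above 2, but its p was not under 0.05.

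Summed over the genes of a role, the groups were close. The summed FPKM of the 18 sterol enzymes was 1732, 1769 and 1746 in gas and 1802, 1787 and 1818 in dCAMP, so that each dCAMP sum was above each gas sum. Yet 10 of these 18 enzymes had a log2 fold change below 0. From gas to dCAMP, mean FPKM rose from 205 to 259 for SQLE, from 147 to 196 for HMGCS1 and from 81.1 to 124 for MSMO1. FDPS, the most abundant, fell from 359 to 304. That of the 5 control and transport genes was 132, 129 and 126 in gas and 123, 121 and 121 in dCAMP, lower in each dCAMP library. Only 2 of the 5 were lower: SREBF1, with a mean of 50.5 in gas and 38.7 in dCAMP, and SCAP, with 23.6 and 18.5. The other 3 had a log2 fold change above 0. No background was computed for such sums. The sums of the fatty acid enzymes overlapped, with 886 to 926 in gas and 864 to 900 in dCAMP. Over all 29 genes the sum was 2782 ± 21.4 in gas and 2800 ± 26.4 in dCAMP (SD, n = 3), a difference smaller than the spread. In such bulk libraries, fewer cells with a transcript and less of it per cell cannot be told apart.

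**Figure D4:**
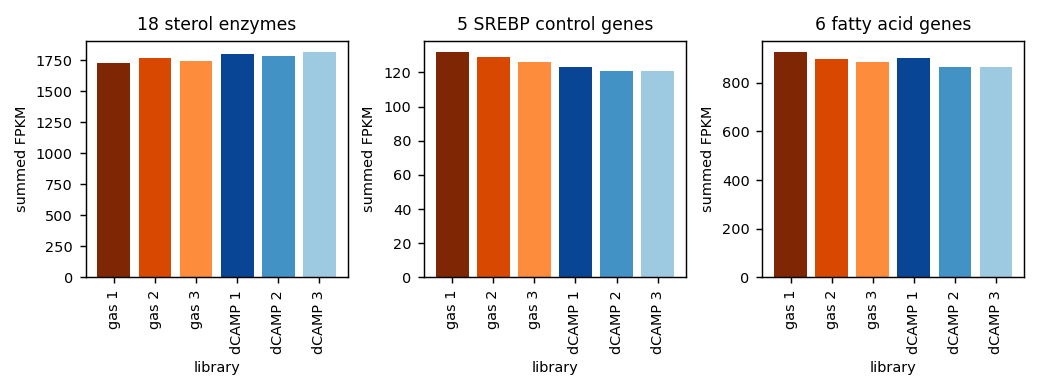
Summed FPKM of the sterol enzymes, the control and transport genes and the fatty acid enzymes in each library of each group (n = 3). The dCAMP sums of the sterol enzymes (1787 to 1818) lie above the gas sums (1732 to 1769), those of the control and transport genes lie below, and those of the fatty acid enzymes overlap.

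Most of the spread behind these values was among the gas libraries. The highest gas value was a median of 1.29 times the lowest, with a range of 1.06 to 9.61 over the 29 genes, while the median in dCAMP was 1.06 and the range 1.03 to 1.21. The gas libraries were further apart than the dCAMP libraries in 26 of 29 genes, against 80.4% of all genes tested. Only SC5D, INSIG2 and MSMO1 had gas values more than 2-fold apart, or 10.3% of the 29 genes against 23.4% of all genes tested. Gas 1 was the lowest of the 6 libraries in 13 genes (44.8%, against 39.2% of all genes tested) and the highest in 15, against 36.9%. All 15 of the latter had a log2 fold change below 0, which a high gas 1 favours because it raises the gas mean. Gas 3 was the gas library nearest to the dCAMP mean in 26 genes (background 68.6%). Whether the order of the gas libraries, in which the mitochondrial share also differed, had a part in these results was not tested.

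The calls turned on the gas library that was nearest to dCAMP. Without gas 3, 11 of the 29 genes had an adjusted p under 0.05 in edgeR's test (37.9%, against 33.1% of all genes tested). HMGCS1 and INSIG2 rose in that fit, with log2 fold changes of 0.60 and 1.16, and 15.0% of all genes tested rose. MVK, MVD, FDPS, LSS, DHCR7, SREBF1, SCAP, FASN and FADS2 fell, with log2 fold changes of -0.29 for FASN to -0.52 for SREBF1, and 18.1% of all genes tested fell. Without gas 1, 0 of the 29 genes had an adjusted p under 0.05 (background 0.00667%), and the log2 fold changes of HMGCS1, SREBF1 and SCAP were 0.31, -0.33 and -0.28. The remaining 4 fits without a library also gave 0 of the 29 genes.

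The share of a gene's counts that went to each of its transcripts was measured in the 20 of the 29 genes with more than 1 transcript. MVK showed the clearest difference. Its transcript of 2577 bases (chr26:17497516-17518857) held 39.3%, 39.4% and 40.2% of the gene's counts in gas and 56.3%, 58.4% and 60.5% in dCAMP. The transcript of 2079 bases (chr26:17497516-17519015) held 53.4%, 54.4% and 53.9% in gas and 40.7%, 32.5% and 34.3% in dCAMP, so that the more abundant of the pair was the 2079-base form in gas and the 2577-base form in dCAMP. Here the 3 gas libraries lay close together, unlike those of the gene's total level.

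The share of the most abundant transcript did not overlap between the groups in MVK, SQLE and SREBF1, 3 of the 20 genes (15.0%), against 10.9% of the 7996 genes measured in this way. MVK was the 1 gene of the 20 with a gap of at least 10 percentage points, against 1.63% of those genes. In SREBF1, the transcript of 3997 bases (chr5:41663809-41686764) held 65.2%, 72.8% and 69.5% in gas and 56.6%, 63.5% and 61.9% in dCAMP. A form of 4062 bases had 1932 counts in gas 2 and 0 in the other 5 libraries, and its part in the shares of gas 2 was not tested. In HMGCS1, the form of 1965 bases held 22.7% in gas 1 and 2.42% to 4.87% in the other 5 libraries. Single dCAMP libraries stood apart as well. The FDPS form of 1664 bases held 51.8% in dCAMP 3 and 5.78% to 13.1% in the other 5 libraries. The ACLY form of 4350 bases held 34.6% in dCAMP 1 and 59.6% to 65.3% in the other 5. No test was made on these shares, which StringTie estimated.

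Genes of neighbouring lipid processes were taken from a further list of 44, of which 42 passed the filter on low counts. None had an adjusted p under 0.05 in edgeR's test, 1 did in DESeq2 (ABCA1; background 2.59%) and 30 did in voom with sample quality weights (71.4%, background 60.8%). At an unadjusted p under 0.05, 6 were higher (14.3%, against 6.81% of all genes tested) and 4 were lower (9.52%, against 13.9%). ABCA1, which exports cholesterol from cells, had 69.0, 64.4 and 77.4 CPM in gas and 108, 93.7 and 103 CPM in dCAMP. The groups did not overlap. The log2 fold change was 0.53 (SE 0.11), with an adjusted p of 0.221 in edgeR's test and 0.0120 in DESeq2. Over the other settings the adjusted p was 0.0002 to 0.285, and with 1 library left out it was 0.0217 to 0.502. With the trend with transcript length removed, the log2 fold change of ABCA1 was 0.24, with an unadjusted p of 0.083. MYLIP, a ubiquitin ligase of lipoprotein receptors, had 3.46, 3.97 and 3.86 CPM in gas and 5.93, 5.79 and 4.85 CPM in dCAMP, a log2 fold change of 0.55 (SE 0.14).

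ME1, a source of NADPH for lipid synthesis, had 75.2, 96.3 and 121 CPM in gas and 137 to 147 CPM in dCAMP, and HSD17B12, a reductase of fatty acid elongation, had 126, 133 and 163 CPM in gas and 176 to 177 CPM in dCAMP. Their log2 fold changes were 0.55 (SE 0.17) and 0.33 (SE 0.11). ELOVL7, an elongase named here after its values were seen, was the 1 gene of the 42 that met the fold and p rule (2.38%, against 1.09% of all genes tested), with 9.48, 20.2 and 36.8 CPM in gas and 49.5 to 56.9 CPM in dCAMP. The 4 lower genes were ELOVL1 (elongation of very long chains, log2 fold change -0.30), MID1IP1 (an activator of acetyl-CoA carboxylase, -0.43), SCARB1 (the receptor of high-density lipoprotein, -0.29) and SLC25A1 (the mitochondrial citrate carrier, -0.27). In all 4, as in LSS, SREBF1 and SCAP but not in FADS2, every dCAMP library was below every gas library. Choosing genes by a small p favours such a gap. It was found in 9 of the 42 genes (21.4%), against 20.9% of all genes tested. Gas 1 was the highest library in all 4, as it was in 36.9% of all genes tested.

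**Figure D5:**
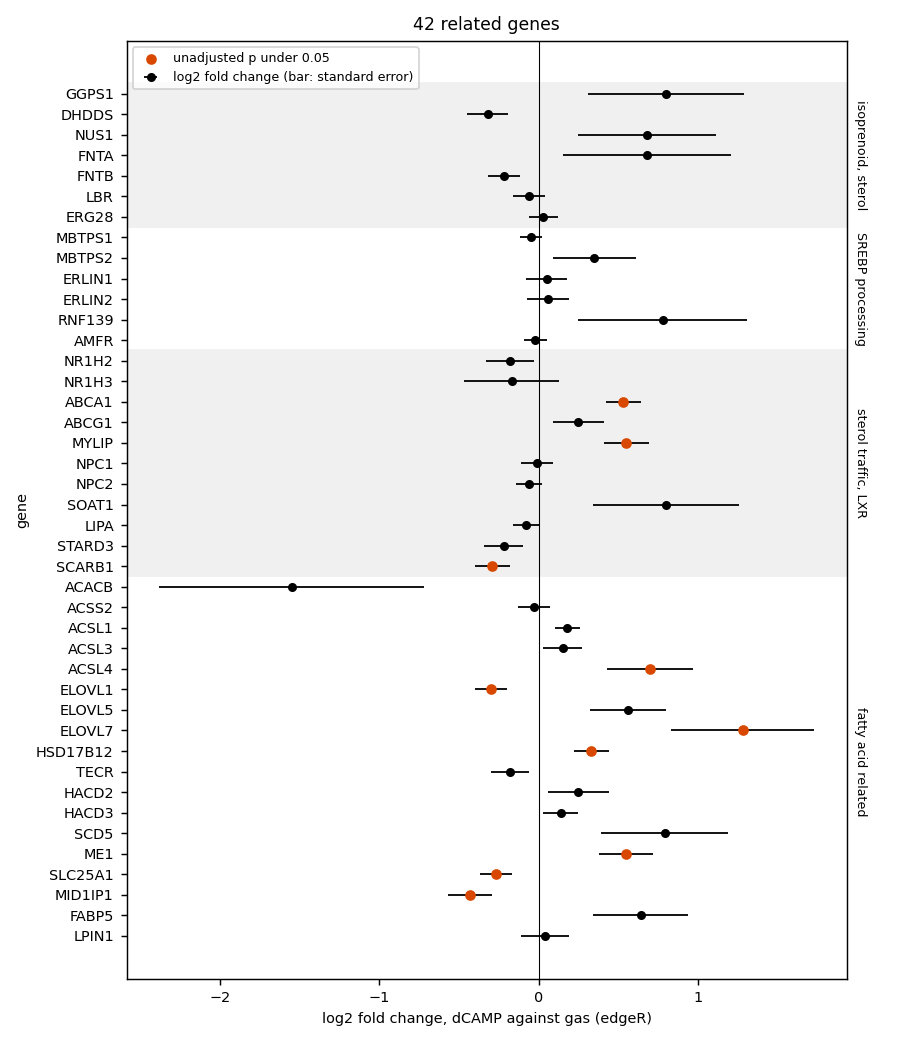
Log2 fold change (dCAMP over gas), with 1 standard error to each side, of the 42 tested genes of neighbouring lipid processes, from edgeR's quasi-likelihood test on 3 libraries per group; orange marks an unadjusted p under 0.05. The points lie on both sides of 0, 24 above and 18 below, with a median of 0.06.

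Markers of other lipid-making cells were mostly at or near 0, with FAR2, SOAT1 and LIPE the exceptions. Of 9 sebocyte markers, AWAT1, AWAT2, MC5R and MOGAT1 were at 0 counts in every library, and PPARG, DGAT2 and ELOVL3 were at most 2.55 CPM. The summed level was 185, 252 and 365 CPM in gas 1, 2 and 3 and 350 to 372 CPM in dCAMP, an order like that of SC5D, MSMO1 and INSIG2. Almost all of it was FAR2, with 158, 198 and 267 CPM in gas and 251 to 269 CPM in dCAMP, and SOAT1, with 23.2, 50.7 and 95.1 CPM in gas and 94.8 to 101 CPM in dCAMP. SOAT1, which esterifies cholesterol, is also among the 42 genes above. Of 7 adipocyte markers LEP was at 0, and the sum, most of it LIPE, was 19.8 to 23.2 CPM in gas and 16.3 to 18.1 CPM in dCAMP. The sums of 8 fibroblast, 5 melanocyte, 6 immune and 4 hepatocyte markers overlapped between the groups and were at most 7.10 CPM. Their part in the results was not tested.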

How the data were processed

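Poly(A) RNA of 3 gas and 3 dCAMP libraries of CPEK cells was sequenced by the authors. Per the submitters' processing notes, reads went through FastQC 0.11.7, Trimmomatic 0.38, HISAT2 2.1.0 (CanFam3.1) and StringTie 2.1.3b. The annotation release is not given in the sources used here. The deposited counts are whole, unnormalized numbers of reads for 35993 genes and 87504 transcripts. For the deposited FPKM values the authors divided by transcript length and by mapped reads. Transcript lengths and loci were read from the deposited transcript table. The 12 TPM columns were not used.

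Library sizes were 43084921 to 54082634 counts, which limits the precision of low genes first. Counts were analysed with R 4.3.3 and edgeR 4.0.16: TMM factors, filterByExpr (14708 genes kept), the quasi-likelihood test between the groups, a prior count of 2 and Benjamini-Hochberg adjustment over all genes tested. The SE is the log2 fold change divided by the root of its F statistic. CPM used the TMM library sizes. The edgeR, DESeq2 and voom fits were also run on simulated counts. These gave gas and dCAMP libraries the same dispersion, unlike the libraries here, so they do not show how the fits act on such gas libraries.

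All 31 members were accounted for, and values in every library were given for those with an unadjusted p under 0.05, for those whose groups did not overlap, and for the SREBP control genes. Of the 44 related genes, the 4 with the smallest p in each direction were named. The members, the related genes and the markers were chosen with earlier results of these data known. The loci of 6 members (ACAT2, PMVK, FDFT1, SREBF1, ACACA and ELOVL6) overlap another gene, and how such reads were counted is not given in the sources used here. Gene names were checked in a RefSeq gene table of UU_Cfam_GSD_1.0, from which no coordinates were taken, and no sequences were used here.

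Alternatives were DESeq2 1.42.0, scaling by RLE or upper-quartile factors, a filter of at least 10 counts in each of the libraries or none, a block for the replicate number, limma 3.58.1 on counts (voom, sample quality weights) or on log2 FPKM with a pseudocount of 1 or 0.1, removal of a trend with transcript length, and leaving out each library.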

Additional observations from a re-analysis of the deposited data

How the results depend on the processing

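Of 370 values of single genes under the alternatives, 332 kept their direction and side of an unadjusted p of 0.05, 10 were no longer under it, 21 were newly under it and 7 turned sign. Of 222 with a library left out, the numbers were 160, 47, 13 and 2. Of the counts of calls and the median, 9 of 70 values moved under the alternatives and 22 of 42 with a library left out. Outside the main test, no share of all genes tested was computed at an unadjusted p, with or without a 2-fold change. Such counts below therefore stand without a background. Voom with sample quality weights gave 22 of the 29 genes an adjusted p under 0.05 (background 60.8%), 1 with a 2-fold change (SC5D), and 13 higher and 10 lower at an unadjusted p under 0.05; among the related genes it gave 20 higher and 10 lower. Limma on log2 FPKM gave 2 higher with either pseudocount. Upper-quartile factors moved the median log2 fold change to -0.12. With libraries left out, the 29 genes gave 0 to 11 at an adjusted p under 0.05, 0 to 2 with a 2-fold change, 0 to 10 higher and 1 to 10 lower, with medians of -0.12 to -0.01, and the related genes gave 2 to 11 higher and 0 to 8 lower. The highest counts came without gas 3, and the lowest of the related genes without gas 2 (lower genes also without dCAMP 2, higher genes also without dCAMP 3); the cause was not tested.

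Signs turned for genes near 0: ACAT2 (0.01), ACACA (-0.16) and SCD (-0.06) with the length trend removed, FDFT1 with upper-quartile factors (-0.05), voom (-0.06) and FPKM (-0.01), and, with libraries left out, FDFT1 (-0.06 to 0.06) and TM7SF2 (-0.24 to 0.05). Deviations from the group means correlated at 0.13, 0.0237 and 0.0479 between gas and dCAMP libraries of the same replicate number. Libraries of unlike number were not compared, and the sources do not say whether same-numbered libraries were handled together, so pairing was not tested. With the replicate block, 0 of the 29 genes had an adjusted p under 0.05, 1 was higher and 4 were lower at an unadjusted p under 0.05, and DHCR7 (-0.27, unadjusted p = 0.0574) and FADS2 (-0.24, 0.0589) lost it, as did the related gene SLC25A1 (-0.27, 0.0541). No share of all genes tested was computed with the block. The lowest count of the 29 genes in any library was 317 (INSIG2, gas 1).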
